A study of Hydra vulgaris with 22 samples.

Results

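In Hydra vulgaris, 17 transcripts stood at least 2-fold higher in every group of sorted stem cells than in unsorted body columns. Here a transcript is the sum of all contigs whose identifiers agree up to the final isoform number, and its level is its count scaled to the total of its library, in CPM, and not per length. The 17 were chosen on these levels: the lowest of the 6 sorted group means had to reach 10 CPM, and had to be at least 2 times the higher unsorted library after 0.5 CPM was added to that library. Of 44306 transcripts, 4138 reached 10 CPM in every sorted group, and 17 of these (0.411%) met the ratio. Because sorted and unsorted levels made the choice, their difference is described below and not tested.

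Polyadenylated RNA from the central body column of strain AEP was sequenced as directional TruSeq libraries. Epithelial cells carried eGFP under an actin promoter, and cells of the epidermis (eESC) or of the gastrodermis (gESC) were selected by high eGFP in fluorescence-activated cell sorting. These gave eESC_10d (n = 4) and gESC_10d (n = 3) after 10 days without food, and eESC_3d (n = 3) and gESC_3d (n = 3) after 3 days. Interstitial stem cells (ISC) carried eGFP under a cnnos1 promoter and were taken through a medium gate (ISC_medium, replicates A to C at 5, 3 and 3 days, n = 3) and a high gate (ISC_high, replicates A to D at 2, 3, 3 and 5 days, n = 4). The reference consists of a single unsorted library from an actin line (unsorted_actin) and a single one from the cnnos1 line (unsorted_cnnos1), both after 10 days. In the labels of unsorted_cnnos1 the eGFP cells are given as gESC, although the line is cnnos1, so it is named by its line. The labels name a promoter, a layer or cell type and an eGFP gate for each sorted population, and do not say whether replicates came from separate cultures, so p-values measure only the spread between these libraries.

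The body wall of Hydra is an inner and an outer epithelial layer, each made of epithelial cells that divide along the body column and are displaced towards the ends. Interstitial stem cells lie between these cells and give rise to nerve cells, stinging cells, gland cells and germ cells. An unsorted body column holds all of these cell types together, whereas a sorted library holds the cells of 1 gate. The identifiers of the 17 transcripts could not be paired with gene names: 0 of 61501 contigs and 0 of 44306 transcripts matched a RefSeq table of 28925 Hydra genes. Transcripts are therefore described by identifier, level and contig make-up, with no function, and the sorted populations could not be checked against their markers.

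The 17 transcripts together took a larger share of every sorted library than of the unsorted ones. The share was 0.245 ± 0.0392% in eESC_10d (SD, n = 4) and 0.140 ± 0.0168% in eESC_3d (n = 3). It was 0.257 ± 0.0341% in gESC_10d (n = 3), 0.156 ± 0.0303% in gESC_3d (n = 3), 0.190 ± 0.0304% in ISC_medium (n = 3) and 0.257 ± 0.0154% in ISC_high (n = 4). In unsorted_actin it was 0.0385% (95% Wilson interval 0.0375 to 0.0395%), and in unsorted_cnnos1 it was 0.0326% (0.0316 to 0.0335%). The group with the smallest share, eESC_3d, thus stood 3.63-fold above the higher unsorted library. In bulk libraries such as these, fewer cells of a type and less RNA per cell cannot be told apart.

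Several features of the libraries moved with this difference. Library totals ran from 17159718 to 31723680 counts in sorted libraries, against 15457132 in unsorted_actin and 13971099 in unsorted_cnnos1, so the unsorted libraries were the 2 shallowest. Among sorted libraries, 8 had at most 20327106 counts (a shallower class) and 12 at least 25195891 (a deeper class). The share in the 17 transcripts moved with depth among the sorted libraries too: it was 0.122 to 0.212% in the shallower class and 0.183 to 0.297% in the deeper one. The part of depth in this difference was not tested. Sorting itself, cell make-up and depth cannot be told apart by the design. Among sorted groups, only eESC_10d and gESC_10d shared the 10 days without food of the unsorted libraries. The other sorted groups were at 2 to 5 days, so for them time without food cannot be told apart either. The sorted library nearest in depth, eESC_3d A with 17159718 counts, had 15 of the 17 transcripts at least 2-fold above unsorted_actin, with ratios from 1.74 (c26350_g1) to 11.7 (c25831_g1), beside 9.88% of the transcripts at 10 CPM. These levels entered the choice of the 17, so nothing is read from that count. Scaling by TMM, a trimmed mean of ratios, gave factors of 0.842 to 1.33 in sorted libraries, against 0.789 in unsorted_actin and 0.743 in unsorted_cnnos1. On that scaling 9 of the 17 reached the ratio of 2, with a lowest ratio of 1.62 (c23967_g2). With the factors of the authors 13 reached it, with a lowest ratio of 1.79 (c22079_g1).

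**Figure D1:**
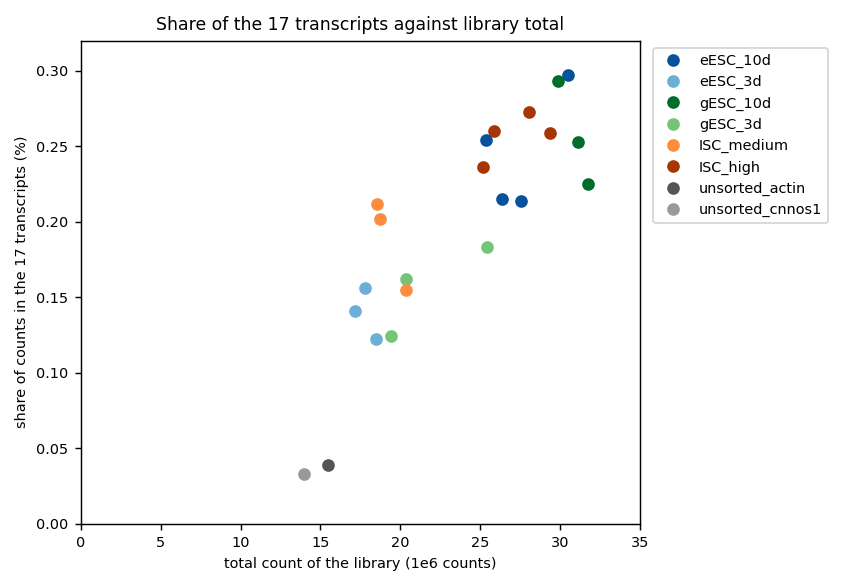
Share of counts held by the 17 transcripts (percent, y axis) against the total count of each library (x axis), 1 point per library. Sorted libraries lie between 0.122 and 0.297%, and the unsorted libraries lie lowest, at 0.0385 and 0.0326%.

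No transcript was absent from the unsorted libraries, whose counts ran from 39 to 1688 per transcript. In all 17, every sorted library lay above both unsorted libraries, as it did in 19.6% of the transcripts at 10 CPM. The choice by level used that contrast, so nothing is read from it. With TMM or with the factors of the authors this held for 16, the exception being c26351_g1. Its lowest library, gESC_3d C at 9.11 CPM, lay 1.05-fold above unsorted_actin at 8.67 CPM.

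**Figure D2:**
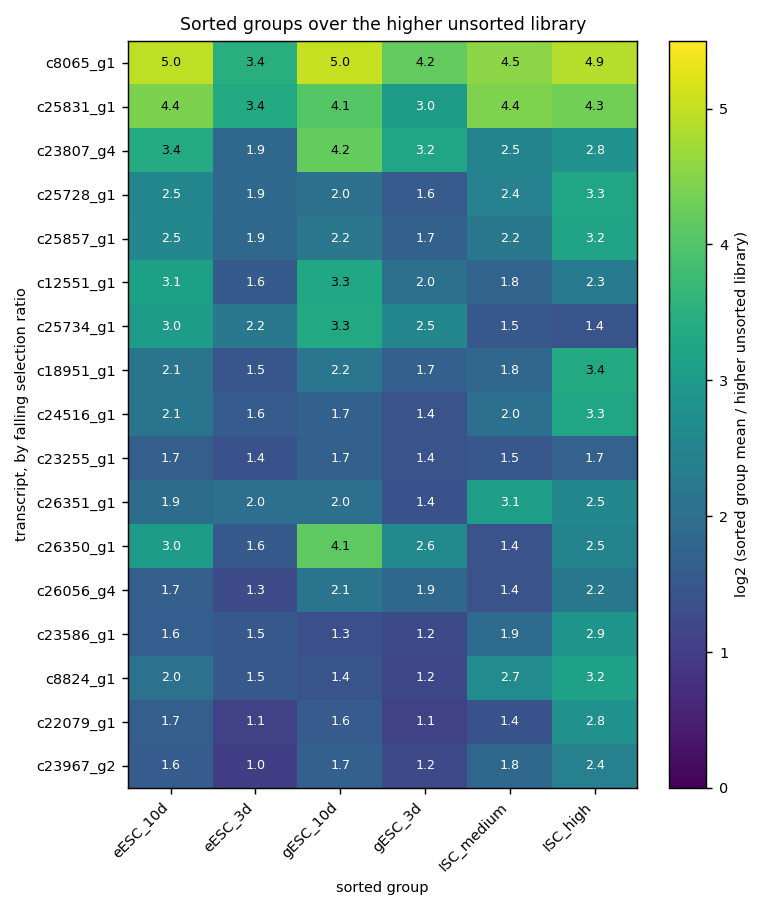
Log2 ratio of each sorted group mean to the higher unsorted library, by transcript (rows, by falling selection ratio) and sorted group (columns). The rows c8065_g1 and c25831_g1 are high in all 6 groups, while c23967_g2 starts near 1 in eESC_3d.

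The selection ratios fell into 2 that were far above the rest and 15 from 2.01 to 3.32. The leading transcripts were c8065_g1, with a ratio of 9.97, and c25831_g1, with 7.75. Next were c23807_g4 (3.32), c25728_g1 (2.96), c25857_g1 (2.86), c12551_g1 (2.76), c25734_g1 (2.67), c18951_g1 (2.65), c24516_g1 (2.54) and c23255_g1 (2.50). The ratio was 2.47 for c26351_g1, 2.43 for c26350_g1, 2.38 for c26056_g4 and 2.19 for c23586_g1. Just inside the limit were c8824_g1 at 2.15, c22079_g1 at 2.06 and c23967_g2 at 2.01. Just outside were c22255_g1 at 2.00 after rounding up, c25038_g1 at 1.99 and c24399_g1 at 1.95. Over the 4138 transcripts at 10 CPM the median ratio was 0.852 and the middle 90% of ratios ran from 0.256 to 1.46.

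Transcript c8065_g1 had the largest ratio. It stood at 167, 158, 116 and 212 CPM in eESC_10d, at 44.8, 50.8 and 76.1 CPM in eESC_3d, at 240.0, 151 and 119 CPM in gESC_10d and at 72.0, 30.7 and 182 CPM in gESC_3d. It stood at 122, 141 and 106 CPM in ISC_medium and at 195, 154, 166 and 106 CPM in ISC_high, against 5.24 CPM (95% Wilson interval 4.22 to 6.51) in unsorted_actin and 4.58 CPM (3.59 to 5.85) in unsorted_cnnos1. The lowest sorted library, gESC_3d B, lay 5.87-fold above the higher unsorted one, and the groups at 10 days lay 31.2-fold (eESC_10d) and 32.5-fold (gESC_10d) above it. The gESC_3d libraries spread widely, with replicate C within the range of gESC_10d.

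Transcript c25831_g1 was at 302, 407, 295 and 590.1 CPM in eESC_10d, at 217, 122 and 239 CPM in eESC_3d, at 429, 237 and 259.8 CPM in gESC_10d and at 245, 60.5 and 139 CPM in gESC_3d. It was at 387, 358 and 474 CPM in ISC_medium and at 270.0, 436, 250.4 and 539.8 CPM in ISC_high, against 18.6 CPM (16.6 to 20.9) in unsorted_actin and 18.0 CPM (15.9 to 20.3) in unsorted_cnnos1. All sorted libraries lay at least 3.25-fold above the higher unsorted one.

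The contigs of c25831_g1 differed in make-up between sorted and unsorted libraries. The choice of transcripts used the sum of the contigs and not their split. Contigs that are scarce in the unsorted libraries raise the ratio of that sum, so the make-up is not independent of the choice. This transcript has 8 contigs. Contig c25831_g1_i02 held 47.9 ± 4.73% of its counts in the sorted libraries (SD over 20 libraries, range 41.1 to 56.2%), but 0.347% in unsorted_actin and 2.39% in unsorted_cnnos1. It had 34.0 to 242 CPM in the epithelial libraries and 110.0 to 239 CPM in the interstitial ones, against 0.0647 CPM (1 count) and 0.429 CPM (6 counts) in unsorted_actin and unsorted_cnnos1. Contig c25831_g1_i05 behaved likewise, with 6.80 to 124 CPM in epithelial and 31.0 to 76.6 CPM in interstitial libraries, against 2 counts and 1 count in the unsorted ones. Contig c25831_g1_i06 went the other way: it had 0.126 to 4.60 CPM in epithelial and 0.408 to 3.63 CPM in interstitial libraries, against 8.99 CPM in unsorted_actin and 9.16 CPM in unsorted_cnnos1.

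Split this way, most of the difference of c25831_g1 lay in 6 of its contigs. Contigs i06 and i07 together held 30.6% (gESC_3d) to 39.0% (ISC_high) of its counts on average in sorted groups, against 99.0% in unsorted_actin and 97.2% in unsorted_cnnos1. Their summed level was 45.3 ± 28.5 CPM in gESC_3d (SD, n = 3), the lowest sorted group, against 18.4 and 17.5 CPM in unsorted_actin and unsorted_cnnos1. The other 6 contigs summed to 103 ± 64.3 CPM in gESC_3d, against 0.194 CPM (3 counts) and 0.501 CPM (7 counts) in the same unsorted libraries. Other transcripts of the same assembly component were also nearly absent from the unsorted libraries: c25831_g2 had group means from 3.92 to 12.7 CPM and c25831_g3 from 8.10 to 23.0 CPM, against 0 CPM in unsorted_actin and 0.0716 CPM in unsorted_cnnos1 for each. These related transcripts were looked up after the values were seen, and the lowest group mean of each was under 10 CPM. How reads shared between contigs were divided is not given in the sources used here, so a level of 1 contig is less certain than the level of the transcript.

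**Figure D3:**
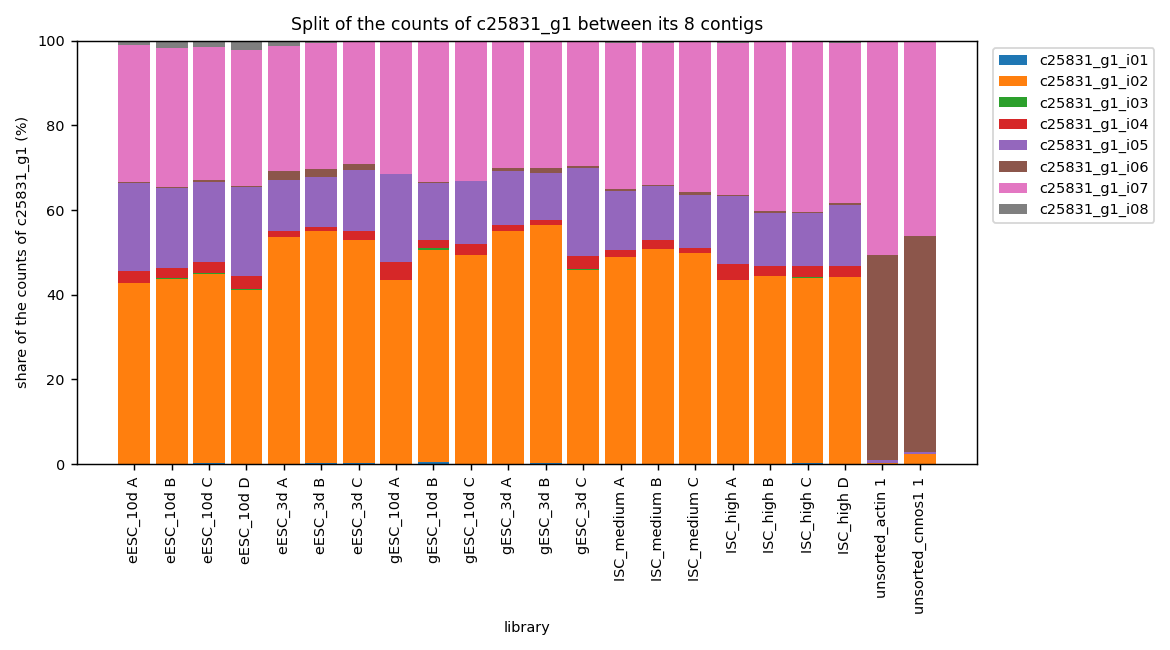
Split of the counts of c25831_g1 between its 8 contigs (percent, stacked bars) in each of 20 sorted and 2 unsorted libraries. Contig i02 fills 41.1 to 56.2% of each sorted bar, and i06 and i07 fill 99.0 and 97.2% of the unsorted bars.

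Contig make-up differed in this way in 1 of the 9 transcripts with several contigs. The same share over the transcripts at 10 CPM was not computed, so nothing is read from that count. In the other 8, at least 1 unsorted library held a share of the leading contig inside the sorted range, and the same contig led in both unsorted libraries. The 17 transcripts hold 47 contigs, and 52.9% of them have at least 2, against 48.1% of the transcripts at 10 CPM. In c25728_g1, leading contig i02 held between 3.23% (ISC_high C) and 73.0% (gESC_3d B) of the counts, and 3 different contigs led in the 6 group means. Over the same libraries the level of the whole transcript ran from 117 to 541 CPM.

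Among themselves, the 17 transcripts had unequal levels in the 6 sorted groups. The highest group mean was in ISC_high for 10, in gESC_10d for 5 and in ISC_medium for 2. Over the transcripts at 10 CPM, ISC_high was highest in 50.5%, gESC_10d in 7.39% and ISC_medium in 15.1%. The lowest mean was in gESC_3d for 8 and in eESC_3d for 7, where 19.2 and 21.9% of those transcripts had it. It was in ISC_medium for c26350_g1 and in ISC_high for c25734_g1. The ratio of the highest to the lowest group mean ran from 1.26 (c23255_g1) to 6.66 (c26350_g1), with a median of 3.24, against 2.71 over the transcripts at 10 CPM.

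**Figure D4:**
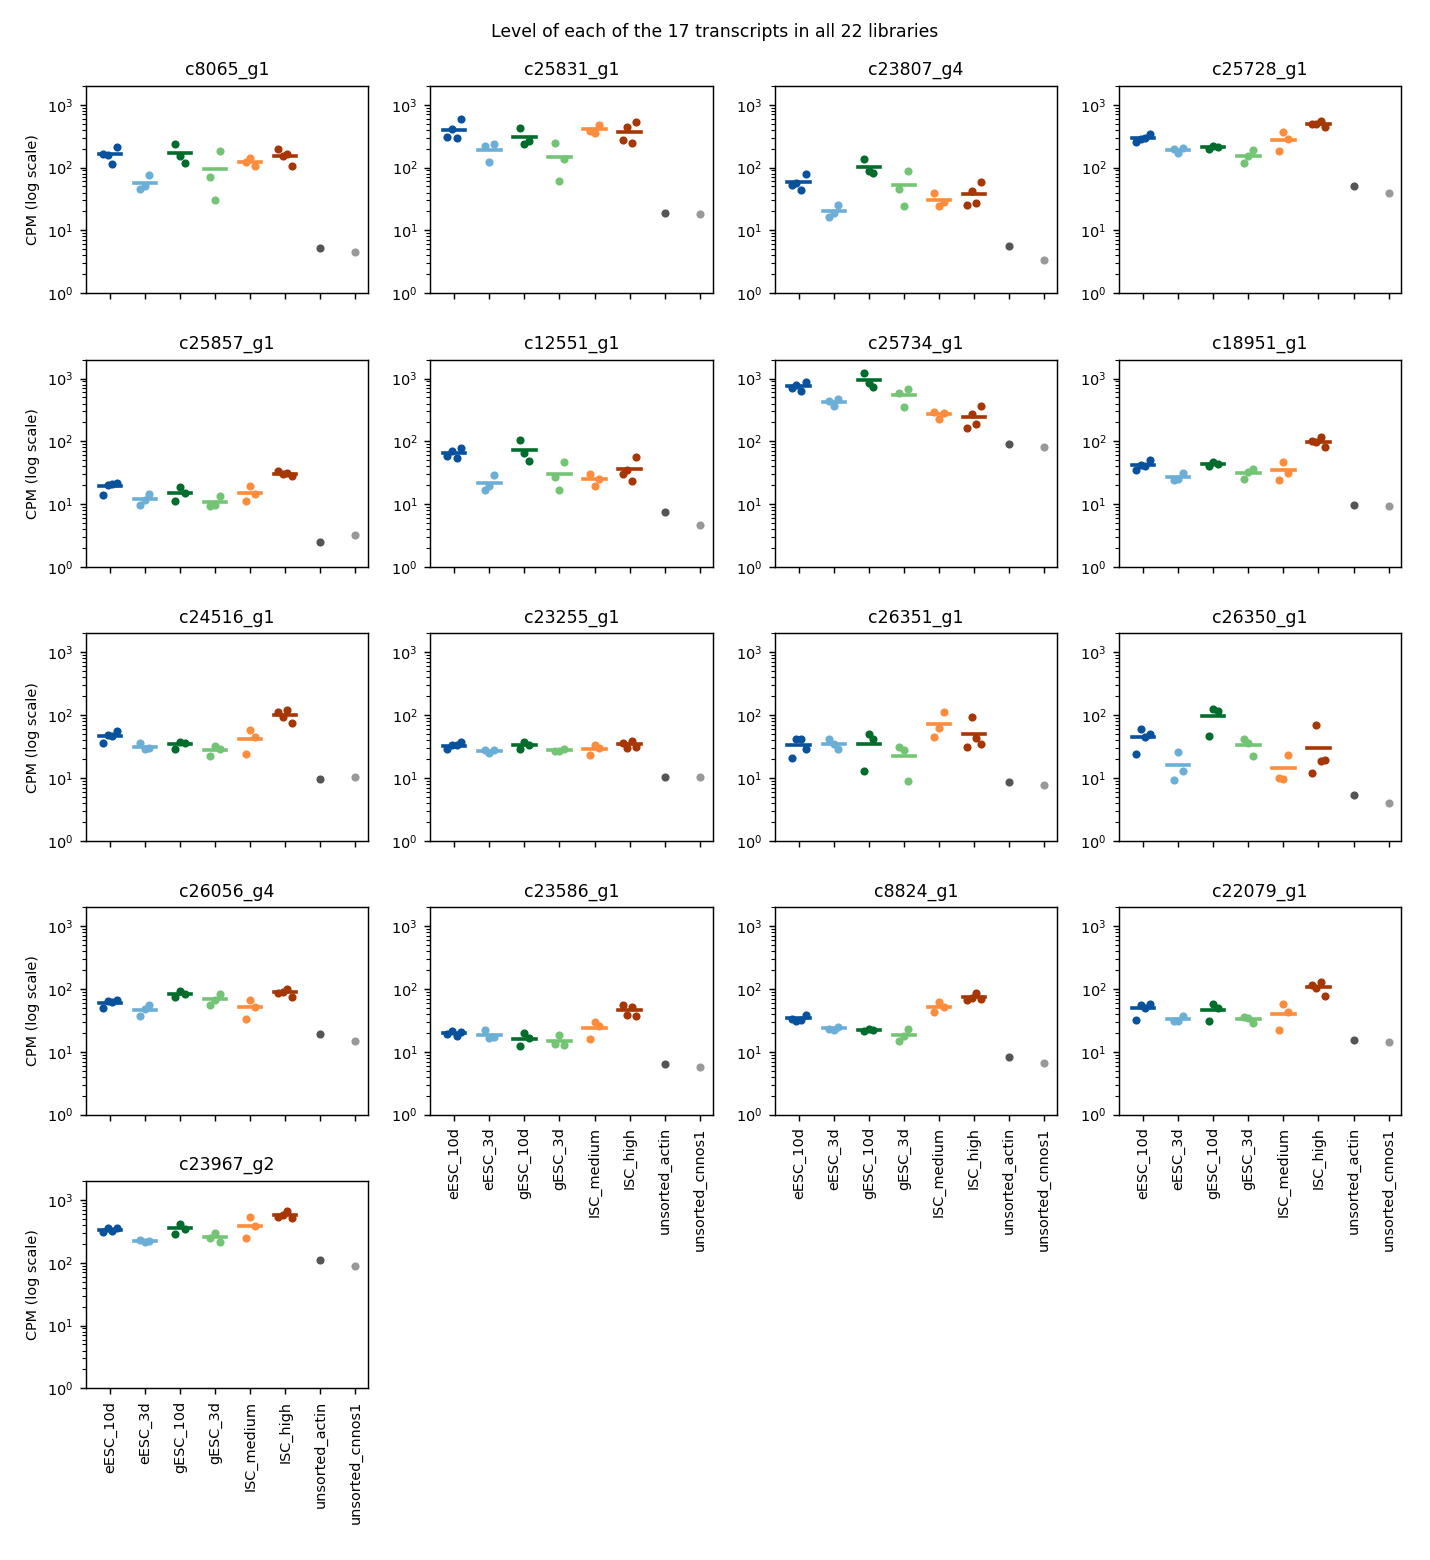
Level of each of the 17 transcripts (CPM, log axis) in all 22 libraries, with sorted groups left of the unsorted libraries. Points are libraries and bars are group means. In every panel all sorted points lie above the unsorted ones, which run from 2.52 to 109 CPM.

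The differences between sorted groups were tested with edgeR's quasi-likelihood test over 18288 transcripts, with Benjamini-Hochberg adjustment within each comparison and a call at an adjusted p under 0.05. The choice of transcripts used no difference between 2 sorted groups, but it asked for a high level in all 6 and so favours transcripts with no low group. All 17 were among those tested. Shares of calls are given for all transcripts tested and for those at 10 CPM. A log2 fold change is the first group named over the second.

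Epithelial cells were first set against the high interstitial gate, all in libraries of at least 25195891 counts. In eESC_10d vs ISC_high, 11 of the 17 were called, beside 70.3% of all transcripts and 76.9% of those at 10 CPM. Of these, 2 were higher in eESC_10d and 9 lower, beside 23.1% higher and 53.7% lower among those at 10 CPM. In gESC_10d vs ISC_high, 12 were called, beside 64.2% of all transcripts and 72.5% of those at 10 CPM. They comprised 4 higher and 8 lower in gESC_10d, beside 23.3% higher and 49.2% lower among those at 10 CPM. Whether the 17 differed from the other transcripts in these shares was not tested. Their median log2 fold change was -0.53 for eESC_10d and -0.33 for gESC_10d, against -0.48 and -0.40 over the transcripts at 10 CPM. These comparisons share the ISC_high libraries, and the times without food differ (10 days in epithelial cells, 2 to 5 in ISC_high).

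Transcript c25734_g1 was the clearest case of a higher epithelial level. It was at 715, 782, 634 and 890.3 CPM in eESC_10d, at 435, 361 and 480.5 CPM in eESC_3d, at 1228, 839.8 and 726 CPM in gESC_10d and at 590.1, 351 and 680.0 CPM in gESC_3d. It was at 293, 226 and 286 CPM in ISC_medium and at 163, 277, 187 and 364 CPM in ISC_high, against 92.3 and 80.0 CPM in unsorted_actin and unsorted_cnnos1. No 10-day epithelial library overlapped with ISC_high. Its log2 fold change against ISC_high was 1.65 in eESC_10d (SE 0.26, adjusted p = 1.4e-05 by edgeR) and 2.13 in gESC_10d (SE 0.27, adjusted p = 1.5e-06).

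The contigs of c25734_g1 also differed between the populations. Of its 13 contigs, 6 were higher in each of the 13 epithelial libraries than in any of the 7 interstitial ones, and 1 was lower in each. Over the 8161 contigs of transcripts at 10 CPM, 7.07% were higher and 12.3% lower in this way. Contig c25734_g1_i02 had 32.8 to 180.5 CPM in epithelial libraries and 2.26 to 10.2 CPM in interstitial ones. Its level was 4.08 CPM in unsorted_actin and 6.66 CPM in unsorted_cnnos1, both within the interstitial range. Contig c25734_g1_i13 went the other way, with 0 to 7.83 CPM in epithelial and 25.5 to 67.5 CPM in interstitial libraries, and no counts in the unsorted ones. Unsorted levels varied among the 6 higher contigs. Contig c25734_g1_i06 had 22.6 CPM in unsorted_actin, above its interstitial range of 6.43 to 12.9 CPM, and 11.6 CPM in unsorted_cnnos1. Contig c25734_g1_i09 had 5.69 and 5.58 CPM in unsorted_actin and unsorted_cnnos1, below its interstitial range of 7.10 to 19.4 CPM. Of the 34 contigs of the other 16 transcripts, only the single contig of c8824_g1 separated the populations without overlap.

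Transcripts c23807_g4, c12551_g1 and c26350_g1 were also higher in gESC_10d than in ISC_high. Transcript c23807_g4 was at 138, 86.9 and 81.9 CPM in gESC_10d and at 25.3, 42.3, 27.0 and 58.1 CPM in ISC_high, with no overlap (log2 fold change 1.65, SE 0.35, adjusted p = 0.00038 by edgeR). For c12551_g1 the values were 106, 64.3 and 49.4 CPM in gESC_10d and 30.3, 34.5, 23.8 and 55.5 CPM in ISC_high, which overlapped (1.25, SE 0.32, adjusted p = 0.0022 by edgeR). In eESC_10d, c12551_g1 was at 57.5, 70.0, 55.3 and 77.3 CPM and rose by 0.89 on the log2 scale against ISC_high (SE 0.30, adjusted p = 0.013 by edgeR). For c26350_g1 the values were 46.2, 123 and 118 CPM in gESC_10d and 12.0, 70.8, 18.8 and 19.5 CPM in ISC_high, with an overlap through ISC_high B (1.89, SE 0.50, adjusted p = 0.0026 by edgeR).

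The transcripts lower in epithelial cells included c8824_g1, c18951_g1, c24516_g1, c23586_g1, c22079_g1, c25728_g1, c25857_g1 and c23967_g2, each called lower in both comparisons and without overlap. In CPM, 9 of the 17 were lower in eESC_10d without overlap, beside 55.8% of the transcripts at 10 CPM, and 8 in gESC_10d, beside 58.8%. Transcript c8824_g1 was at 33.6, 31.4, 31.8 and 38.9 CPM in eESC_10d, at 21.2, 23.1 and 21.9 CPM in gESC_10d and at 67.2, 72.7, 85.1 and 67.9 CPM in ISC_high, against 8.22 and 6.66 CPM in unsorted_actin and unsorted_cnnos1. Its log2 fold change was -1.06 in eESC_10d (SE 0.13, adjusted p = 1.2e-06 by edgeR) and -1.52 in gESC_10d (SE 0.15, adjusted p = 5.5e-08). Over all sorted libraries it ran from 15.1 to 38.9 CPM in epithelial cells and from 42.9 to 85.1 CPM in interstitial cells, so that the populations did not overlap.

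Transcript c18951_g1 was at 34.8, 42.7, 40.2 and 50.2 CPM in eESC_10d and at 102, 96.4, 116 and 82.6 CPM in ISC_high (log2 fold change -1.19, SE 0.16, adjusted p = 2.8e-06 by edgeR). In gESC_10d c24516_g1 was at 28.7, 37.5 and 36.1 CPM, against 111, 93.1, 122 and 74.5 CPM in ISC_high (-1.35, SE 0.24, adjusted p = 5.7e-05 by edgeR). For c23586_g1 the values were 12.5, 19.6 and 16.3 CPM in gESC_10d and 56.4, 38.0, 52.3 and 37.6 CPM in ISC_high (-1.32, SE 0.23, adjusted p = 6.8e-05 by edgeR). The ninth transcript lower in eESC_10d, c26056_g4, had a log2 fold change of -0.49 there (SE 0.16, adjusted p = 0.0091 by edgeR) and of 0.13 in gESC_10d (SE 0.17), which was not called.

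**Figure D5:**
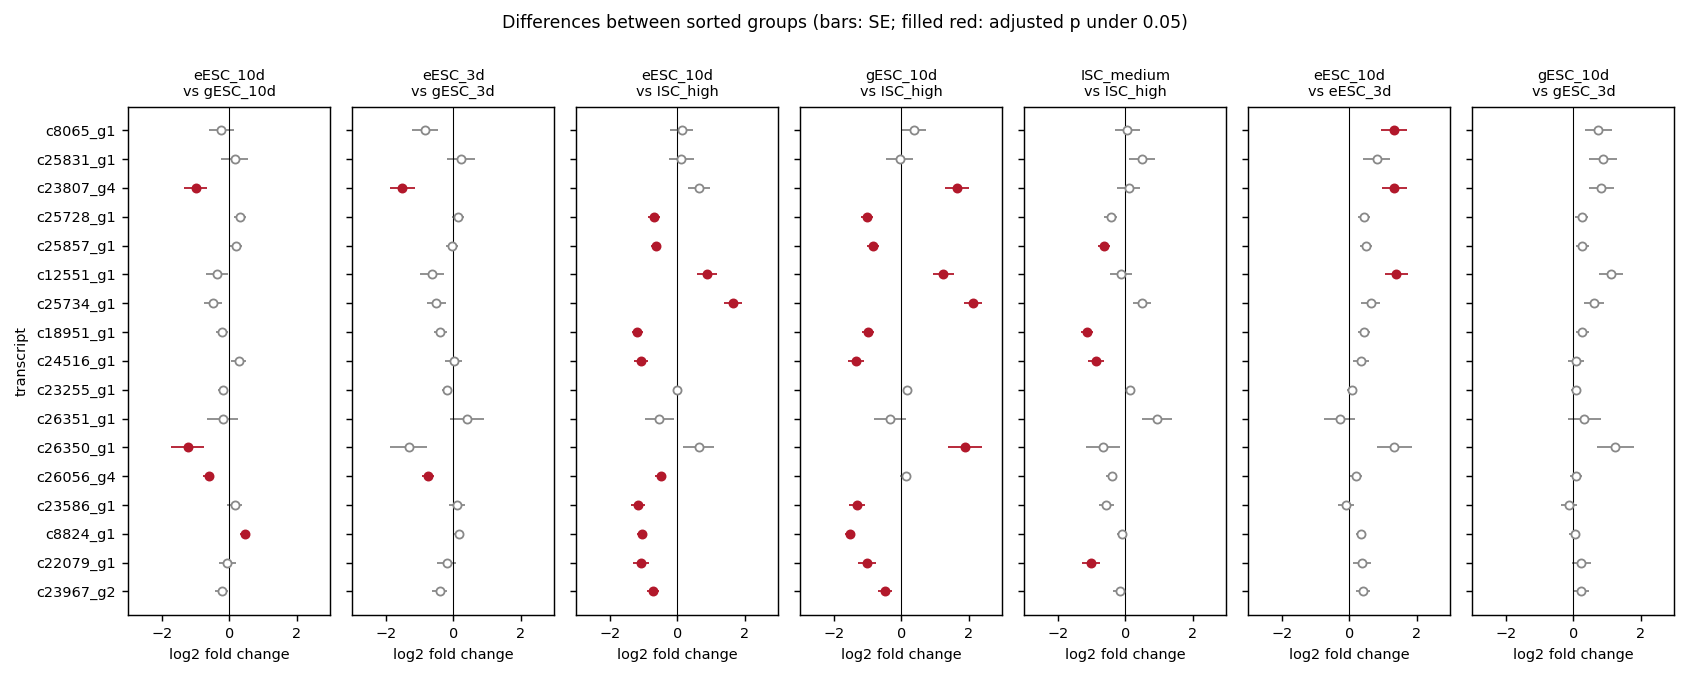
Log2 fold change of each transcript (x axis, bars are SE) in 7 comparisons of sorted groups, the group on top over the one below it. Filled red points have an adjusted p under 0.05. In the columns of eESC_10d and gESC_10d against ISC_high, c25734_g1 lies farthest to the right (1.65 and 2.13), and the last column has no filled point.

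Between the epithelial layers, c23807_g4, c26056_g4 and c26350_g1 were lower and c8824_g1 was higher in eESC than in gESC in at least 1 comparison. In eESC_10d vs gESC_10d, 4 were called, beside 51.9% of all transcripts and 35.3% of those at 10 CPM. These were 1 higher and 3 lower in eESC_10d, beside 16.5% higher and 18.8% lower among those at 10 CPM. In eESC_3d vs gESC_3d, 2 were called, beside 49.6% of all transcripts and 37.7% of those at 10 CPM. Both were lower in eESC_3d, as were 23.4% at 10 CPM. Both counts rest on 17 transcripts, and the difference from those shares was not tested.

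Transcripts c23807_g4 and c26056_g4 were lower in eESC at both times. Transcript c23807_g4 was at 52.2, 56.7, 43.7 and 80.4 CPM in eESC_10d and at 138, 86.9 and 81.9 CPM in gESC_10d (log2 fold change -1.0, SE 0.34, adjusted p = 0.020 by edgeR). After 3 days it was at 16.3, 18.9 and 25.3 CPM in eESC_3d and at 44.9, 24.3 and 88.1 CPM in gESC_3d, overlapping through gESC_3d B (-1.51, SE 0.38, adjusted p = 0.0028 by edgeR). Transcript c26056_g4 was at 50.5, 63.3, 61.7 and 66.7 CPM in eESC_10d and at 73.6, 93.3 and 82.7 CPM in gESC_10d (-0.61, SE 0.17, adjusted p = 0.0041 by edgeR). In 3-day cells c26056_g4 was at 36.8, 47.7 and 55.0 CPM in eESC_3d and at 56.1, 66.9 and 83.8 CPM in gESC_3d (-0.75, SE 0.18, adjusted p = 0.0018 by edgeR).

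The other calls at 10 days were c26350_g1, lower in eESC_10d at 24.4, 60.6, 44.3 and 50.5 CPM against 46.2, 123 and 118 CPM in gESC_10d (log2 fold change -1.24, SE 0.49, adjusted p = 0.041 by edgeR), and c8824_g1, higher in eESC_10d (0.46, SE 0.15, adjusted p = 0.012). With library size as the only scaling, 2 were called at 10 days, both higher in eESC_10d: c8824_g1 and c25728_g1. Leaving out eESC_10d D, gESC_10d B or gESC_10d C each left 2 calls, c23807_g4 and c26056_g4. Without gESC_3d C, the only 3-day epithelial library of the deeper class, 4 were called after 3 days, all lower in eESC_3d.

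In the medium interstitial gate, 4 transcripts fell below the high gate, beside 34.5% of all transcripts and 48.9% of those at 10 CPM called in either direction. Among those at 10 CPM, 25.1% were called lower. None of the 17 was called higher by edgeR. Transcript c18951_g1 was at 24.5, 46.9 and 31.8 CPM in ISC_medium and at 102, 96.4, 116 and 82.6 CPM in ISC_high (log2 fold change -1.15, SE 0.18, adjusted p = 6e-05 by edgeR). Transcript c22079_g1 was at 22.1, 56.8 and 42.5 CPM in ISC_medium and at 117, 104, 129 and 75.9 CPM in ISC_high (-1.02, SE 0.26, adjusted p = 0.0046 by edgeR). Transcript c24516_g1 was at 24.4, 57.1 and 45.2 CPM in ISC_medium and at 111, 93.1, 122 and 74.5 CPM in ISC_high (-0.87, SE 0.23, adjusted p = 0.0064 by edgeR). For c25857_g1 the values were 11.3, 19.8 and 14.5 CPM in ISC_medium and 33.9, 29.7, 31.2 and 28.0 CPM in ISC_high (-0.63, SE 0.18, adjusted p = 0.0099 by edgeR). In CPM, 8 of the 17 were lower in ISC_medium without overlap, as were 46.5% of the transcripts at 10 CPM.

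The number of calls, 4 here, moved with the scaling and the fit. All ISC_medium libraries had at most 20327106 counts and all ISC_high libraries at least 25195891, so depth and gate cannot be told apart between them. With library size alone 9 were called, all lower in ISC_medium, and the share of all calls that were higher in ISC_medium was 23.7%, against 43.7% with TMM. That scaling moved the median log2 fold change of all transcripts to -0.43, against -0.037 with TMM. With depth class as a term, 0 were called by edgeR. With only these groups in the fit, 1 was called (c18951_g1). Without ISC_medium B, 7 were called.

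At 10 days without food most of the 17 stood above their 3-day level, and 3 rose past the threshold in eESC. In eESC_10d vs eESC_3d, 15 of the 17 log2 fold changes were positive, and in gESC_10d vs gESC_3d 16 were. The 10-day mean in CPM was higher in both layers for 16, as it was for 51.4% of the transcripts at 10 CPM. In 10 transcripts every eESC_10d library lay above every eESC_3d library, as in 27.3% of those at 10 CPM, and in 6 every gESC_10d library lay above every gESC_3d library, as in 10.2%. The median log2 fold change was 0.44 in eESC and 0.26 in gESC, against -0.064 and -0.15 over the transcripts at 10 CPM. In 15 of the 17 the lowest group was a 3-day epithelial one, so those groups set the selection ratio of these 15.

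The 3 that rose in eESC_10d vs eESC_3d were c12551_g1, c23807_g4 and c8065_g1, where 12.3% of all transcripts and 18.8% of those at 10 CPM were called, 6.45% of the second set higher. Transcript c12551_g1 was at 57.5, 70.0, 55.3 and 77.3 CPM in eESC_10d and at 16.7, 19.6 and 29.5 CPM in eESC_3d (log2 fold change 1.39, SE 0.34, adjusted p = 0.014 by edgeR). Transcript c23807_g4 was at 52.2, 56.7, 43.7 and 80.4 CPM in eESC_10d and at 16.3, 18.9 and 25.3 CPM in eESC_3d (1.34, SE 0.36, adjusted p = 0.023 by edgeR). The log2 fold change of c8065_g1, whose values are above, was 1.33 (SE 0.39, adjusted p = 0.031 by edgeR). None of the 3 overlapped between the times.

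None of these 3 calls held in every setting. All eESC_3d libraries were in the shallower class and all eESC_10d libraries in the deeper one, so depth and time cannot be told apart there. With depth class as a term, none of the 17 was called by edgeR, and c8065_g1 had a log2 fold change of -0.22 (adjusted p = 0.91 by edgeR). That term is estimated from gESC_3d, the only group with libraries in both classes. No transcript of the 17 was called without eESC_3d A, without eESC_3d B or without eESC_10d D, and 9 were called with only these groups in the fit. With library size alone 7 were called, the share of all calls that were higher at 10 days was 71.8%, against 53.1% with TMM and 38.1% with median-of-ratios factors, and the median of all transcripts was 0.34, against 0.16 with TMM.

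In gESC_10d vs gESC_3d none of the 17 was called by edgeR, beside 0.0656% of all transcripts and 0.121% of those at 10 CPM. By edgeR 4 had an unadjusted p under 0.05, and DESeq2 called 0. Transcript c12551_g1 was at 106, 64.3 and 49.4 CPM in gESC_10d and at 27.3, 17.0 and 47.6 CPM in gESC_3d (log2 fold change 1.12, SE 0.35, adjusted p = 0.16 by edgeR). Without gESC_3d C, c12551_g1 and c8065_g1 were called, both higher at 10 days. Whether the change with time differed between the layers was tested as an interaction. None of the 17 was called by edgeR, 0 had an unadjusted p under 0.05 and DESeq2 called 0, beside 0.0820% of all transcripts and 0.0242% of those at 10 CPM called. The interaction ran from -0.61 to 0.60 on the log2 scale.

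The spread between replicates differed widely among the 17. The SD over mean within sorted groups, as the median over the 6 groups, had a median of 21.1% over the 17, against 11.9% over the transcripts at 10 CPM, and 14 of the 17 lay above 11.9%. The 2 sets were not matched on level and their difference was not tested. The spread was widest for c26351_g1 (50.2%), c26350_g1 (49.3%) and c12551_g1 (34.3%), and narrowest for c25728_g1 (10.7%), c8824_g1 (10.7%) and c23255_g1 (11.3%). Transcript c23255_g1 was also the most even across groups, at 28.4, 33.0, 32.9 and 37.0 CPM in eESC_10d and at 36.5, 30.1, 38.7 and 31.4 CPM in ISC_high, against 10.3 and 10.2 CPM in unsorted_actin and unsorted_cnnos1. By contrast, c26351_g1 was at 13.1, 50.8 and 41.1 CPM in gESC_10d and at 44.9, 62.8 and 113 CPM in ISC_medium, against 8.67 and 7.73 CPM in unsorted_actin and unsorted_cnnos1.

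Within groups, certain libraries were often the highest, in the 17 and, except for eESC_3d C, in most transcripts at 10 CPM too. These libraries were singled out after the values were seen. Library eESC_10d D was the highest of its group in 13 of the 17, beside 66.5% of the transcripts at 10 CPM, gESC_10d B in 12 (68.8%), eESC_3d C in 12 (36.8%) and gESC_3d C in 10 (54.9%). The interstitial gates were read separately for the 10 transcripts highest in ISC_high and the other 7, a split also made after the values were seen, and no difference between them was tested. ISC_high D and ISC_medium A, the libraries at 5 days without food, were both the lowest of their gates in 8 of the 10, beside 28.1% of the transcripts at 10 CPM that were highest in ISC_high. They were so in 0 of the other 7, beside 22.2% of the remaining transcripts at 10 CPM. ISC_high D was the highest of its gate in 4 of the other 7, beside 21.1%. With 1 library at 5 days in each gate, time and library cannot be told apart.

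In these transcripts the unsorted libraries stood within 1.65-fold of each other. The choice divided by the higher of them and so kept out transcripts high in only 1, so nothing is read from their likeness. Unsorted_actin was above unsorted_cnnos1 in 15 of the 17, beside 72.6% of the transcripts at 10 CPM, with ratios from 0.766 (c25857_g1) to 1.65 (c23807_g4). No members of the 17 shared an assembly component with each other, and 8 had other transcripts in their component, 17 in all. Among these, looked up after the values were seen, c26350_g2 had a selection ratio of 2.78 and c23586_g2 of 2.01 at lowest group means of 3.54 and 7.78 CPM. Transcript c26056_g1, at group means from 319 to 452 CPM against 213 and 165 CPM in unsorted_actin and unsorted_cnnos1, had a ratio of 1.50.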

How the data were processed

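The authors deposited counts for 61501 contigs in 22 libraries, which were used for every result. They also deposited a signal table of 26024 contigs, equal to the counts times 1 factor per library (largest relative deviation 7.7e-11). The submitters' processing notes name cutadapt 1.11, Salmon 0.7.2 and DESeq2 without roles; the transcriptome build is not given in the sources used here. The 14 largest counts end in 0.

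Counts were summed per transcript (identifier without its isoform number), and CPM taken on column totals. The members, lists and named transcripts were chosen with earlier results of these data known. Named were the 10 highest ratios, the 6 highest levels, those next to the limit, the extreme called fold changes without overlap, the extremes of spread and of contig make-up; others were named after their values were seen.

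Sorted libraries were fitted in edgeR 4.0.16 (R 4.3.3; quasi-likelihood F test, TMM, filterByExpr with minimum count 10 and total 15, common coefficient of variation 0.294), tested on simulated data, where the recovery of changed transcripts missed a first pass mark that was then lowered. Alternatives included DESeq2 1.42.0. Wilson intervals (95%) cover counting error only. Replicate letters were correlated in deviation from group means: of 7 comparisons, only gESC_10d vs ISC_high had every letter over 0.1 (0.37, 0.24 and 0.14), the criterion for pairing, and the labels give no origin for the letters.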

Additional observations from a re-analysis of the deposited data

Results flagged for a closer look

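Transcript c26350_g1 was far higher in 1 library of the high interstitial gate than in the others: ISC_high B had 70.8 CPM, while the other 3 libraries ran from 12.0 to 19.5 CPM. The gap to the nearest library was 0.872 of the range of the group, above Dixon's 95% critical value for 4 samples. Both groups of 4 were tested for all 17 transcripts, 34 groups in all, and chance flags about 1 in 20. Other libraries also spread widely for this transcript, such as gESC_10d A at 46.2 CPM beside 123 and 118 CPM.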

How the results depend on the processing

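The number of transcripts chosen moved from 17 to 10 with TMM scaling (9 of the 17 among them) and to 26 at a 5 CPM minimum. With single contigs in place of transcripts, 46 contigs passed. They came from 16 of the 17 and also from transcripts outside the 17, such as c25098_g1 and c22991_g1. The number of transcripts was 116 against unsorted_cnnos1 alone, 445 with the 10-day sorted groups alone, and 8 by the lowest single library. It was 14 with the factors of the authors, and 16 to 22 when each replicate was left out. The fold of the share, 3.63, was 2.92 with TMM. Of 8 counts of called transcripts, those of eESC_10d vs ISC_high, gESC_10d vs ISC_high and the interaction stayed within 1.5 times. With library size alone, 2 were called in eESC_10d vs gESC_10d, 9 in ISC_medium vs ISC_high and 7 in eESC_10d vs eESC_3d. With only the groups compared, these counts were 8, 1 and 9. At a mean of 5 CPM, 6 were called in eESC_10d vs eESC_3d. A term for depth class was estimated from gESC_3d, the only group with libraries in both classes. With it, 4 were called in eESC_3d vs gESC_3d, 0 in ISC_medium vs ISC_high and 0 in eESC_10d vs eESC_3d. In the last of these c8065_g1 reversed to -0.22 (adjusted p 0.91 by edgeR). Leaving out each replicate gave 2 to 4, 2 to 4, 3 to 7, 0 to 3 and 0 to 2 calls in eESC_10d vs gESC_10d, eESC_3d vs gESC_3d, ISC_medium vs ISC_high, eESC_10d vs eESC_3d and gESC_10d vs gESC_3d. With the replicate letter as a block, the 8 counts were 4, 3, 12, 12, 5, 3, 0 and 0, so the paired fit of gESC_10d vs ISC_high also had 12; in the other comparisons letters share only a name, with correlations from -0.38 to 0.34. Over 19 named results, 288 refits gave 262 with the same call, 25 that lost it and 1 reversed. The cause of these shifts was not tested. Depth limits the unsorted values, each from a single library, down to 39 counts for the least covered transcript.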
